A study of Mus musculus with 4 samples.

Results

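The genes described here bind iron or heme or carry them into, within and out of cells. They are Tfrc, Slc11a2, Trf, Fth1, Ftl1, Slc40a1, Cp, Hp and Hpx, 9 of the 21216 genes on the array, and they were taken as every non-control probe that the scanner files name with one of these symbols. The 9 genes had 12 probes: 3 for Slc11a2, 2 for Cp and 1 for each of the other 7. All 12 probes were well above background on all 4 arrays and none was saturated.

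The 4 one-colour Agilent arrays each measured kidney RNA labelled with Cy3, and each group had 1 array. The groups were NLRC5-/- with ischemia reperfusion injury, wild type (WT) with ischemia reperfusion injury, NLRC5-/- with sham operation and WT with sham operation. All mice were on the C57BL/6 background and 8 weeks old; injury was bilateral renal ischemia for 30 min followed by reperfusion. The reperfusion time reads 48 h in the titles of the injured samples and in the design, but 24 h in the sample descriptions, and the difference was not resolved. NLRC5 is a NOD-like receptor known as an activator of MHC class I genes, and the labels do not say which of its exons were deleted or how many mice gave each RNA. The comparisons ask how the kidney responds to ischemia and reperfusion with and without NLRC5.

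Iron travels in plasma on transferrin, enters cells with the transferrin receptor, leaves the endosome through the divalent metal transporter, is stored in ferritin and leaves the cell through ferroportin. Iron-regulatory proteins bind iron-responsive elements in several of these mRNAs and adjust receptor and ferritin production to the iron in the cell. Hemoglobin set free from red cells is bound by haptoglobin, and free heme by hemopexin. The proximal tubule takes up filtered iron carriers and heme proteins, and released iron and heme are known to harm tubules after ischemia.

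The probes shown are those for which position on the transcript or disagreement within a gene matters below. Positions are on mouse build mm9, as the scanner files give them, and the files do not state exon or untranslated region. The 3 Slc11a2 probes lie on the minus strand of chromosome 15. The pair named for transcript variant 2 (A_52_P254298 and A_51_P388737) starts at bases 253 and 2961 of the transcript, and the probe named for variant 1 (A_52_P196476) starts at base 4055. The first is given whole, the second as its bases 26 to 55 with AATAAA, the letters of a polyadenylation signal, in capitals, and the third as its first 30 bases.
Slc11a2 A_52_P254298, chr15:100240516-100240575: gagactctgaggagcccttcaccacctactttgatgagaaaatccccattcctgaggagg
Slc11a2 A_51_P388737, chr15:100218333-100218392: catccttgttatAATAAAgttcatgcttaa
Slc11a2 A_52_P196476, chr15:100223347-100223406: tgttccctattcacttgattgtcactgaaa

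The Cp probes lie on the plus strand of chromosome 3, 20312 bases apart. The one named for variant 2 (A_51_P493234, base 3255) is given whole and the one named for variant 4 (A_52_P597002, base 4348) as its first 30 bases. The Hp probe (A_51_P235945, minus strand, base 1141) is given whole. The Ftl1 probe (A_52_P501733, minus strand, base 220) is given as its bases 21 to 60, with the ATG that opens the ferritin light chain reading frame in capitals. The Tfrc probe (A_52_P228236, plus strand, base 4288), spotted 10 times per array, is given as its first 30 bases. No other probe among the 41174 on the array shared 20 bases in a row with any of the 12.
Cp A_51_P493234, chr3:19889075-19889134: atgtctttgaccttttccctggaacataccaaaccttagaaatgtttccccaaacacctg
Cp A_52_P597002, chr3:19909387-19909446: gcccacagcagtcatagcaacaggagtcta
Hp A_51_P235945, chr8:112099172-112099231: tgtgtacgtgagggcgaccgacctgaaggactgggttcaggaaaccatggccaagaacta
Ftl1 A_52_P501733, chr7:52714977-52715036: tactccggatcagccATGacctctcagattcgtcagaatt
Tfrc A_52_P228236, chr16:32632255-32632314: tgagcaagatcacattaacaaagactagtt

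A level below is log2 of the scanner's processed signal minus the array's 75th percentile, and a difference is between the levels of 2 arrays. With 1 array per group no test between 2 arrays is possible, and no difference can be set against the spread between animals. The spots of probes printed several times give the technical error: the log2 difference of a single spot had an SD of 0.13 to 0.17 in the 4 comparisons. The WT arrays came from slide 1 and the NLRC5-/- arrays from slide 2, so genotype and slide cannot be told apart, while each injury comparison lies within 1 slide. The 75th percentile signal was 362.2 and 181.7 on the NLRC5-/- injured and WT injured arrays and 465.4 and 456.2 on the NLRC5-/- sham and WT sham arrays. The share of probes called well above background ran from 67.3% to 74.6%. The Nlrc5 probe was at -3.62, -3.34, -3.77 and -4.08 on the NLRC5-/- injured, WT injured, NLRC5-/- sham and WT sham arrays and well above background on all 4, which checks no label as long as the deleted part is not given. The array labelled NLRC5-/- sham alone had Xist (5.20) and no Y-linked gene of 4 above background; the other 3 had all 4 and no Xist above background. Injury in NLRC5-/- kidney and genotype in sham kidney thus each set arrays of unlike sex-chromosome pattern side by side, and the part of this in their values was not tested. All 10 proximal tubule markers and all 5 of the thick ascending limb and collecting duct were above background on every array, as were 5 of 5 endothelial markers. The NLRC5-/- sham array had the highest summed erythroid signal and the WT sham array the highest summed adipocyte and hepatocyte signal, and their values stand beside the results they move with.

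**Figure D1:**
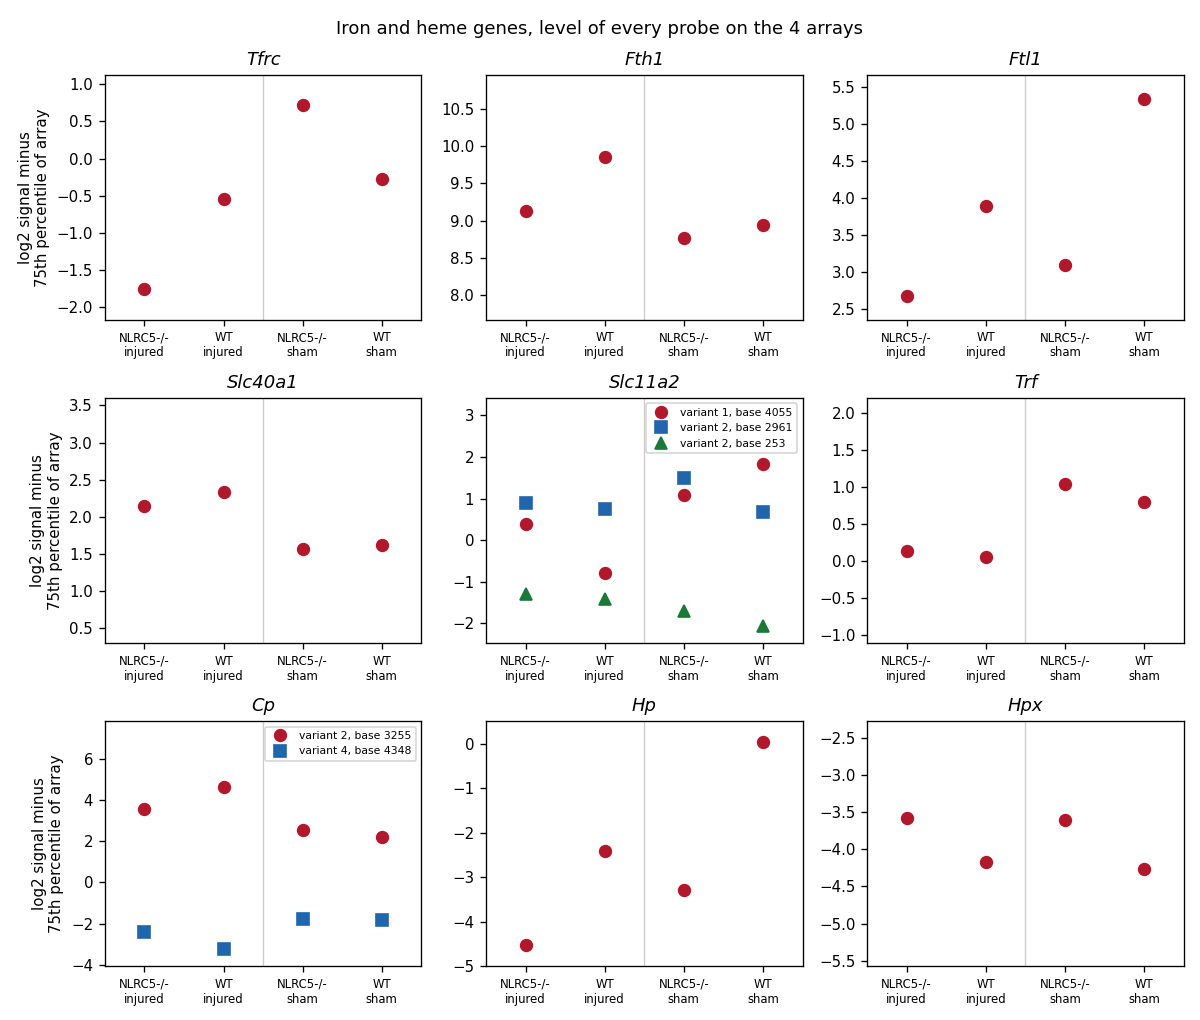
Level of each of the 12 probes (vertical axis, log2 signal minus the array's 75th percentile) on the 4 arrays (horizontal axis); each point is 1 array and there are no error bars. Hp and Ftl1 were highest on the WT sham array, Cp variant 2 on the WT injured array, and Tfrc on the NLRC5-/- sham array. In the Slc11a2 and Cp panels the probes are set together only for their patterns, since levels of different probes cannot be compared.

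Tfrc encodes the transferrin receptor, which brings transferrin-bound iron into the cell. Its level was -1.76 on the NLRC5-/- injured array, -0.55 on the WT injured array, 0.72 on the NLRC5-/- sham array and -0.28 on the WT sham array. The NLRC5-/- sham array was the highest and the NLRC5-/- injured array the lowest, with both WT arrays between them. The injured minus sham difference was -2.48 in NLRC5-/- kidney (ratio 0.180) and -0.27 in WT kidney (ratio 0.828), which differ by -2.20. Against WT, the NLRC5-/- array was at a ratio of 1.99 in sham kidney and 0.432 in injured kidney, so the direction was opposite in the 2 treatments. With normexp background correction the injury difference in NLRC5-/- kidney was -1.41 and the genotype difference in injured kidney -0.28, no longer 2-fold. The SD between spots was 0.04 to 0.10 within an array, from 8 to 10 spots. In whole kidney RNA, fewer cells of a type and less RNA per cell cannot be told apart.

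Young red cells also carry much Tfrc, and erythroid markers had the same highest array. The summed erythroid level, over 6 of 8 listed genes on the array, was 2.21 on the NLRC5-/- injured array, 1.64 on the WT injured array, 5.93 on the NLRC5-/- sham array and 3.37 on the WT sham array. Alas2, the heme synthesis enzyme of red cell precursors, was at -5.22, -5.17, 0.68 and -3.02 in the same order. Ahsp, the chaperone of alpha globin, was above background on none of the 4 arrays. Between the injured arrays the order of the sum was that of Slc4a1, at 1.71 on the NLRC5-/- and 0.35 on the WT array. The alpha globin genes ran the other way there, with Hba-a1 at -1.17 and -0.23 and Hba-a2 at -0.17 and -0.07. The erythroid part in the Tfrc difference was not tested. With the WT sham array set in place of the NLRC5-/- sham array, a choice made after seeing the data, the difference for the NLRC5-/- injured array was -1.48.

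Slc11a2 encodes the divalent metal transporter DMT1, which moves iron out of endosomes, and its 3 probes did not run together. Slc11a2 transcripts with and without an iron-responsive element near their end are known; which of them each probe reads was not determined. The variant 1 probe was at 0.39 on the NLRC5-/- injured array, -0.79 on the WT injured array, 1.08 on the NLRC5-/- sham array and 1.83 on the WT sham array. Both sham arrays lay above both injured arrays. The injury difference was -0.69 in NLRC5-/- kidney (ratio 0.621; -1.44 with the WT sham array in place of the NLRC5-/- one, chosen after seeing the data) and -2.62 in WT kidney (ratio 0.162), and the NLRC5-/- array was at a ratio of 2.28 to WT after injury (log2 1.19, or 0.72 with normexp background correction).

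The other Slc11a2 probes showed no such loss in WT kidney. The variant 2 probe at base 2961 was at 0.89, 0.76, 1.48 and 0.67 on the NLRC5-/- injured, WT injured, NLRC5-/- sham and WT sham arrays, with injury differences of -0.59 in NLRC5-/- kidney and 0.09 in WT kidney. The variant 2 probe at base 253 was at -1.29, -1.42, -1.71 and -2.07, with injury differences of 0.41 in NLRC5-/- kidney and 0.65 in WT kidney. The 3 probes therefore gave injury differences in WT kidney that ran from -2.62 to 0.65. The gene counts below use the brightest probe, that of variant 1.

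The variant 1 pattern stood beside that of proximal tubule genes, the cells that take up filtered iron. The summed level of the 10 proximal tubule markers was 10.11 on the NLRC5-/- injured array, 7.86 on the WT injured array, 10.17 on the NLRC5-/- sham array and 10.33 on the WT sham array. Of these markers, 0 were lower by 2-fold after injury in NLRC5-/- kidney and 9 in WT kidney, beside 3.27% and 12.9% of all genes. Slc22a6 (1.02) was the 1 marker higher by 2-fold in NLRC5-/- kidney. The part of these markers in the Slc11a2 difference was not tested.

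Trf encodes transferrin, the plasma iron carrier, made mainly in liver. Its level was 0.13 on the NLRC5-/- injured array, 0.05 on the WT injured array, 1.04 on the NLRC5-/- sham array and 0.80 on the WT sham array. Both injured arrays lay below both sham arrays, by nearly the same step. The injury difference was -0.91 in NLRC5-/- kidney (ratio 0.532) and -0.75 in WT kidney (ratio 0.593), short of 2-fold in each. The genotype differences were 0.08 in injured and 0.24 in sham kidney, beside technical SDs of 0.15 and 0.16. The Trf probe (A_51_P362638, chr9:103117569-103118184, minus strand) is 60 bases long and spans 616 bases of the genome.

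Fth1 and Ftl1 encode the heavy and light chains of ferritin, the iron storage shell, whose heavy chain oxidises iron on entry. Fth1 was among the brightest probes, with rank 7 on both injured arrays and rank 6 on both sham arrays of 41142 probes. Its level was 9.13 on the NLRC5-/- injured array, 9.86 on the WT injured array, 8.77 on the NLRC5-/- sham array and 8.94 on the WT sham array. Both injured arrays were above both sham arrays on this scale, by 0.36 in NLRC5-/- kidney and 0.92 in WT kidney.

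The Fth1 differences depended on the scaling, since its unscaled signal varied little between arrays. That signal was 202632 and 168640 on the NLRC5-/- injured and WT injured arrays and 202770 and 223540 on the NLRC5-/- sham and WT sham arrays. The injury difference in WT kidney, 0.92 with the 75th percentile, was 0.82 with median scaling and 0.655 with normexp background correction. It was -0.02 with quantile normalization and -0.36 in the authors' value table. The NLRC5-/- minus WT difference in injured kidney was -0.73, with -0.78 under median scaling and -1.09 under normexp background correction. It was 0.00 with quantile normalization and 0.05 in the authors' value table. Quantile normalization gives probes of equal rank equal values, so with the ranks above its differences could only be near 0. No direction is given for Fth1. Whether transcripts of ferritin pseudogenes bind this probe was not examined.

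The Ftl1 level was 2.68 on the NLRC5-/- injured array, 3.89 on the WT injured array, 3.096 on the NLRC5-/- sham array and 5.33 on the WT sham array. The WT sham array stood above the other 3, and its unscaled signal of 18406 compared with 2328, 2693 and 3980 on the NLRC5-/- injured, WT injured and NLRC5-/- sham arrays. The NLRC5-/- array was lower than WT in both treatments, at a ratio of 0.433 in injured kidney and 0.212 in sham kidney. The injury difference was -0.41 in NLRC5-/- kidney and -1.44 in WT kidney. The second of these shares the WT sham array with the genotype difference in sham kidney: with the NLRC5-/- sham array in its place, a choice made after seeing the data, it was 0.79. The opposite exchange gave -2.65 in NLRC5-/- kidney.

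Slc40a1 encodes ferroportin, the iron exporter of the cell membrane. Its level was 2.14 on the NLRC5-/- injured array, 2.34 on the WT injured array, 1.57 on the NLRC5-/- sham array and 1.62 on the WT sham array. Both injured arrays lay above both sham arrays, by 0.57 in NLRC5-/- kidney and 0.71 in WT kidney (ratio 1.64), short of 2-fold. The genotype differences were -0.20 in injured and -0.06 in sham kidney. Macrophages that recycle red cell iron are rich in ferroportin. The summed level of 8 macrophage markers was 3.88, 3.03, 3.97 and 3.55 on the NLRC5-/- injured, WT injured, NLRC5-/- sham and WT sham arrays. After injury in WT kidney the list was split, with 1 marker higher by 2-fold (Cd68, 2.80) and 5 lower, beside 14.3% and 12.9% of all genes. The part of these markers in the Slc40a1 levels was not tested. The Slc40a1 probe (A_51_P389988, chr1:45965255-45965314, minus strand) starts at base 2980.

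Cp encodes ceruloplasmin, a copper-containing oxidase that turns exported iron into the form transferrin binds. The variant 2 probe was at 3.56 on the NLRC5-/- injured array, 4.61 on the WT injured array, 2.55 on the NLRC5-/- sham array and 2.22 on the WT sham array. Both injured arrays were above both sham arrays. Cp was higher after injury by 1.01 in NLRC5-/- kidney (2.02-fold) and by 2.40 in WT kidney (5.27-fold). After injury the NLRC5-/- array was at a ratio of 0.483 to WT, whereas in sham kidney it was 0.33 higher. With normexp background correction the difference after injury in NLRC5-/- kidney was 0.41, short of 2-fold.

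The variant 4 probe of Cp ran the other way. It was at -2.41 on the NLRC5-/- injured array, -3.24 on the WT injured array, -1.78 on the NLRC5-/- sham array and -1.84 on the WT sham array. The injury differences were -0.63 in NLRC5-/- kidney and -1.40 in WT kidney, and with normexp background correction they were 0.54 and -0.14, so the sign in NLRC5-/- kidney turned. The variant 2 probe gave the values used in the counts.

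Genes of the injured tubule had the same order of arrays as Cp among the injured pair. The summed level of the 8 tubular injury markers was 6.53 on the NLRC5-/- injured array, 8.81 on the WT injured array, 5.31 on the NLRC5-/- sham array and 5.40 on the WT sham array. Of these 8, 5 were higher by 2-fold after injury in NLRC5-/- kidney and 7 in WT kidney, beside 4.45% and 14.3% of all genes. The sham sums were near each other, but single markers were not. In NLRC5-/- sham kidney 2 were lower by 2-fold and 1 was higher (Lcn2), beside 3.32% and 3.98% of all genes. The lower ones were Havcr1 (-4.95 against 0.35 in WT sham) and Krt20 (-3.63 against -1.03). Havcr1 had the larger injury difference in NLRC5-/- kidney (5.54, against 3.07 in WT kidney), unlike Cp. The summed neutrophil level was also highest on the WT injured array, at 1.71 on the NLRC5-/- injured, 3.57 on the WT injured, 2.73 on the NLRC5-/- sham and 2.22 on the WT sham array. It rested on S100a8, S100a9 and Mpo, since Elane, Camp and Ngp were above background on no array. Their part in the Cp difference was not tested.

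Hp encodes haptoglobin, the plasma protein that binds free hemoglobin, made mainly in liver and also in fat. Its level was -4.52 on the NLRC5-/- injured array, -2.41 on the WT injured array, -3.30 on the NLRC5-/- sham array and 0.03 on the WT sham array. The WT sham array stood far above the others, and the order of arrays was that of Ftl1. The NLRC5-/- array was at 0.231 of WT in injured kidney and 0.0996 of WT in sham kidney, the largest genotype difference among the 9 genes in each treatment on this scale. The injury difference was -1.23 in NLRC5-/- kidney and -2.44 in WT kidney.

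Part of this Hp pattern rested on a dim signal. The unscaled signal was 15.7 on the NLRC5-/- injured array, 34.2 on the WT injured array, 47.4 on the NLRC5-/- sham array and 466.3 on the WT sham array. The first is only 1.73 times the lowest signal called well above background there. With normexp background correction the injury difference in NLRC5-/- kidney was 1.24 and the genotype difference in injured kidney 0.28, both of opposite sign to the values above. The genotype difference in sham kidney was -2.34 under that correction and kept its sign.

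The summed signals of fat and liver markers were highest on the same WT sham array. The summed adipocyte level, over 7 of 8 listed genes, was 3.23 on the NLRC5-/- injured array, 2.27 on the WT injured array, 3.73 on the NLRC5-/- sham array and 5.62 on the WT sham array. Outside the WT sham array the sum rested on Fabp4, at 3.14, 2.15 and 3.69 on the NLRC5-/- injured, WT injured and NLRC5-/- sham arrays. The order of these arrays in the sum was not that of Hp. Adipoq and Plin1 were above background on the WT sham array alone, at 0.42 and -1.21, and Lep on none. The summed hepatocyte level, over 7 of 8 listed genes, was 2.18, 0.80, 1.66 and 4.75 on the NLRC5-/- injured, WT injured, NLRC5-/- sham and WT sham arrays, and rested there on Cyp2e1 (4.67). Alb, the liver's main plasma protein, was at -3.60, -4.00, -3.00 and -1.01, while Apoa1 and Ahsg were above background on no array. The other detected hepatocyte genes were highest elsewhere: Ttr (-0.56) and Apoa2 (-1.45) on the NLRC5-/- sham array and Fga (-0.91) on the WT injured array. Their part in the Hp and Ftl1 differences was not tested. With the NLRC5-/- sham array in place of the WT sham array, a choice made after seeing the data, Hp was 0.89 higher on the WT injured array. The opposite exchange gave an injury difference of -4.56 in NLRC5-/- kidney.

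**Figure D2:**
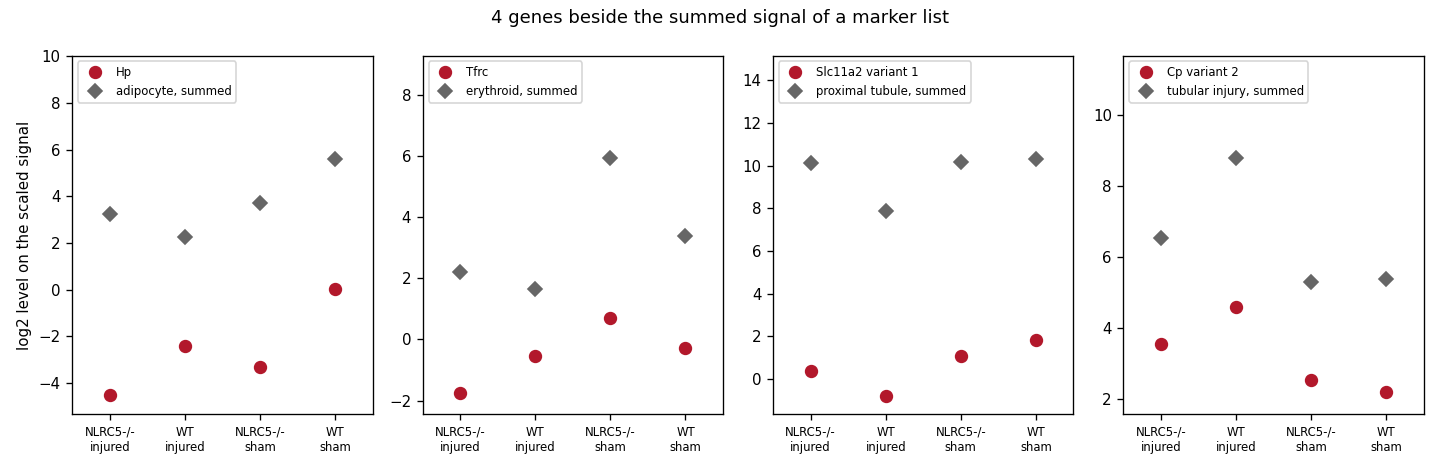
Levels of Hp, Tfrc, Slc11a2 variant 1 and Cp variant 2 (red circles) on the 4 arrays beside the summed level of 1 marker list each (grey diamonds); the vertical axis is log2 of the scaled signal, and each point is 1 array. Hp and the adipocyte sum were highest on the WT sham array, at 0.03 and 5.62. Tfrc and the erythroid sum were highest on the NLRC5-/- sham array, at 0.72 and 5.93. In both of these pairs the order of the other arrays differed between the gene and the sum.

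Hpx encodes hemopexin, the plasma protein that binds free heme, made mainly in liver. Its level was -3.58 on the NLRC5-/- injured array, -4.17 on the WT injured array, -3.61 on the NLRC5-/- sham array and -4.27 on the WT sham array. Both NLRC5-/- arrays lay above both WT arrays, by 0.59 in injured and 0.66 in sham kidney. The injury differences were 0.03 in NLRC5-/- kidney and 0.10 in WT kidney, within the technical SD. The signals were 1.49 to 3.99 times the lowest signal called well above background, and normexp background correction gave injury differences of 1.63 and 1.01. Hpx was lowest on the WT sham array.

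**Figure D3:**
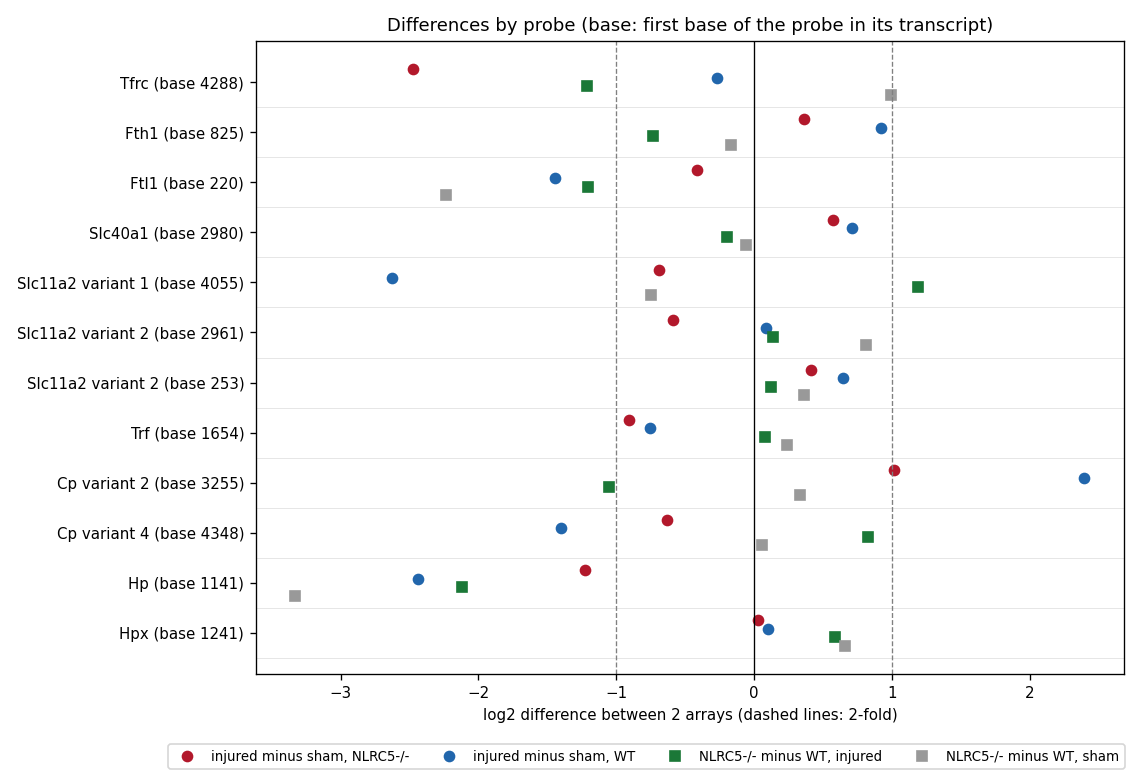
Log2 differences (horizontal axis) of the 12 probes (vertical axis, with the first base of the probe in its transcript) for injured minus sham (circles: red NLRC5-/-, blue WT) and NLRC5-/- minus WT (squares: green injured, grey sham); dashed lines mark 2-fold. The widest is that of Hp between the sham arrays, where the NLRC5-/- array was at 0.0996 of WT. For the injury differences, the 3 Slc11a2 probes do not all share a sign in either genotype, nor do the 2 Cp probes.

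Over the 9 genes, a 2-fold difference was counted from the brightest probe of each and set beside the share of all genes that differed as much. After injury in NLRC5-/- kidney, 1 gene was higher (Cp) and 2 were lower (Tfrc and Hp), beside 4.45% higher and 3.27% lower (7.72% either way) among 17091 genes. That background depended on the background correction: with normexp 4532 of all genes were higher and 561 lower, against 760 and 559. After injury in WT kidney, 1 was higher (Cp) and 3 were lower (Ftl1, Slc11a2 and Hp), beside 14.3% higher and 12.9% lower (27.2% either way) among 16719 genes. The median difference of the 9 was -0.41 in NLRC5-/- kidney and -0.27 in WT kidney, beside medians over all genes of 0.01 and 0.00. Cp and Hp passed 2-fold in both genotypes, and the sign of the injury difference was the same in both for 9 of 9 genes. What share of all genes did either was not counted, so these overlaps have no background. The signs of Fth1 and Hpx turn with the scaling, and that of Hp in NLRC5-/- kidney with the background correction.

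Between genotypes in injured kidney, 1 gene was higher in NLRC5-/- (Slc11a2) and 4 were lower (Tfrc, Ftl1, Cp and Hp), beside 8.74% higher and 7.79% lower (16.5% either way) among 16791 genes. In sham kidney 0 were higher and 2 were lower (Ftl1 and Hp), beside 3.98% higher and 3.32% lower (7.30% either way) among 17038 genes. The medians of the 9 genes were -0.73 in injured and -0.06 in sham kidney, beside 0.01 and 0.04 over all genes. Ftl1 and Hp were the genes lower by 2-fold in both treatments, and the share of all genes that were so was not counted. Each genotype comparison shares arrays with each injury comparison, so their values are not independent.

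The difference of the injury responses, NLRC5-/- minus WT, was past 2-fold for 5 of the 9 genes, beside 9.83% upward and 9.30% downward (19.1% either way) among 14982 genes. It was positive for Slc11a2 (1.94), Hp (1.21) and Ftl1 (1.03), whose signal was lower after injury by more in WT kidney, and negative for Tfrc (-2.20) and Cp (-1.38). The other 4 were between -0.56 (Fth1) and -0.07 (Hpx). No spread between animals stands behind these values.

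A limma fit of injury and genotype together over 16608 genes, with 1 residual degree of freedom, gave 0 genes an adjusted p under 0.05 (0.00% for each term). The fit counts a difference of response between the genotypes as error, so its SE and p values do not measure the spread between animals. The smallest adjusted p in that fit was 0.414 for injury and 0.765 for genotype. At an unadjusted p under 0.05 it counted 847 genes higher and 1028 lower for injury (11.3%), and 557 higher and 348 lower for genotype (5.45%). Among the 9 genes, Cp was higher over both injured arrays by 1.71 ± 0.45 log2 (SE; limma, unadjusted p = 0.0253, adjusted p = 0.432), in 2 of 2 genotypes. The difference was -1.83 ± 0.41 for Hp (SE; limma, unadjusted p = 0.0159, adjusted p = 0.432) and -0.83 ± 0.26 for Trf (SE; limma, unadjusted p = 0.040, adjusted p = 0.432), each in 2 of 2 genotypes. The Hp term was -0.07 with normexp background correction, and -0.17 without the WT sham array and -3.50 without the NLRC5-/- sham array. For NLRC5-/- minus WT, it was -2.72 ± 0.41 for Hp (SE; limma, unadjusted p = 0.00457) and -1.72 ± 0.38 for Ftl1 (SE; limma, unadjusted p = 0.0144), both with an adjusted p of 0.765 and in 2 of 2 treatments. With normexp background correction these terms were -1.03 for Hp and -1.74 for Ftl1. The other members had adjusted p values from limma of up to 0.907 for injury and 0.969 for genotype. Leaving out an array also forces the other factor out of the fit, so that 1 array stands against 2 and is assumed to vary like them. In this form limma called 781 genes for injury without the NLRC5-/- injured array, Cp among them (2.23, adjusted p = 0.0427), and 126 for genotype without the WT sham array. With normexp background correction it called 4402 for injury and 100 for genotype. The p values of the 9 genes then followed the size of the difference alone, however unlike the responses of the genotypes were.

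A wider set of iron and heme genes that leaves out the 9, with 57 listed and 56 on the array, was read the same way. After injury 2 of 52 measured genes were higher by 2-fold and 3 lower in NLRC5-/- kidney, against 10 higher and 7 lower of 52 in WT kidney. Over all genes, too, more passed 2-fold in WT kidney, with 7.72% in NLRC5-/- and 27.2% in WT kidney either way. The median difference of the list was -0.03 in NLRC5-/- kidney and -0.36 in WT kidney. Lcn2, whose protein binds iron-carrying siderophores and which also belongs to the tubular injury markers, had the largest injury difference of the list in WT kidney. It was at 1.59 on the NLRC5-/- injured array, 4.61 on the WT injured array, -0.87 on the NLRC5-/- sham array and -1.93 on the WT sham array, which is 5.52-fold higher after injury in NLRC5-/- kidney and 92.8-fold in WT kidney.

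Hmox1, heme oxygenase, which opens the heme ring and frees its iron, was at 1.35 on the NLRC5-/- injured array, 4.16 on the WT injured array, 0.32 on the NLRC5-/- sham array and 1.13 on the WT sham array. It was 2.04-fold higher after injury in NLRC5-/- kidney and 8.21-fold in WT kidney. Meltf, melanotransferrin, an iron-binding relative of transferrin, was higher after injury in WT kidney by 4.16. The lower genes in NLRC5-/- kidney were Tmprss6, a protease that restrains hepcidin (-2.61), Flvcr2 (-1.24) and the metal importer Slc39a8 (-1.11). In WT kidney the 3 lowest were Lrp2 (megalin, the endocytic receptor of the proximal tubule, -2.79), Slc39a8 (-2.10) and the heme synthesis enzyme Uros (-1.96). Tmprss6 entered that ranking as a bound (-0.71), since its probe was not above background on the WT injured array.

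By role, to be read beside the same 7.72% and 27.2% of all genes, uptake and reduction genes had 1 higher and 1 lower of 14 after injury in NLRC5-/- kidney, against 6 higher and 4 lower of 14 in WT kidney. Genes of heme uptake, breakdown and transport had 1 higher and 1 lower of 13 in NLRC5-/- kidney, against 4 higher and 1 lower of 13 in WT kidney. The 4 were Hmox1, the biliverdin reductase Blvrb (2.25), the heme transporters Flvcr1 (1.40) and Slc48a1 (1.19). Heme synthesis had 0 and 0 of 8 in NLRC5-/- kidney and 1 lower of 8 in WT kidney. The other storage and sensing genes, without Fth1 and Ftl1 and with the iron-regulatory proteins Aco1 and Ireb2 and the ferritin receptor Ncoa4 among them, had 0 of 7 past 2-fold in any of the 4 comparisons. Hamp, Hjv and Erfe of the hepcidin axis were above background on no array.

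Between genotypes in injured kidney, 2 of 50 were higher and 8 lower in NLRC5-/-, beside 4 higher and 2 lower of 52 in sham kidney; over all genes 16.5% and 7.30% passed 2-fold either way. In injured kidney the higher ones were Flvcr2 (1.66) and Lrp2 (1.26), and the 3 lowest were Meltf (-3.03), Lcn2 (-3.02) and Hmox1 (-2.81). In sham kidney the 3 highest were Ambp (1.53), Tmprss6 (1.43) and Flvcr2 (1.15), and the lower ones were Bmp6 (-1.33) and the heme synthesis enzyme Cpox (-1.20). The difference of the injury responses, NLRC5-/- minus WT, was past 2-fold upward for 5 and downward for 10 of 48. Its extremes were Lrp2 (1.91), Uros (1.59) and Cpox (1.56) upward, and Lcn2 (-4.07), Meltf (-3.52) and Steap1 (-2.17) downward.

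**Figure D4:**
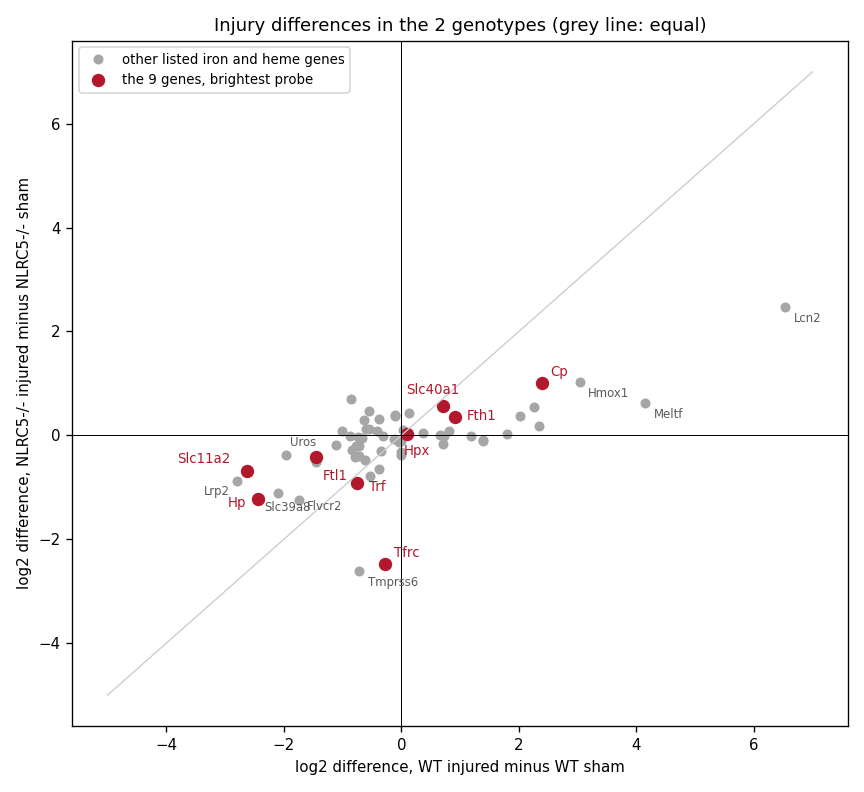
Injury difference in NLRC5-/- kidney (vertical axis, log2, injured minus sham) against that in WT kidney (horizontal axis) for the 9 genes (red) and the other listed iron and heme genes (grey); each point is 1 gene and the grey line marks equal values. Lcn2, Meltf, Hmox1 and Cp lie below the line, since they were higher after injury by more in WT kidney. Tfrc (-2.48 in NLRC5-/-, -0.27 in WT) lies on the same side, since it was lower by more in NLRC5-/- kidney. Tmprss6 is also drawn below it, but its WT value (-0.71) is a bound. Its probe was not above background on the WT injured array, where its own level was -6.58, beside -4.03 on the WT sham array. The distance of Tmprss6 from the line is thus not a measured one.

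For members whose levels spanned at least 2 log2, the genes with the most similar pattern were searched among 14981 genes by the root mean square difference of centred levels over the 4 arrays. Slc11a2 (variant 1) was nearest to Enpp2 (0.04 log2), Kmo (0.07) and Ugt3a2 (0.10). Cp was nearest to Relb (0.08), Pvr (0.09) and Usp14 (0.10), and Tfrc to Gsta4 (0.22), Spink8 (0.30) and Cytl1 (0.30). Ftl1 was nearest to Gm15645 (0.13), Adgrf1 (0.20) and Odc1 (0.27). Hp had no neighbour as near: the closest were Plekhb2 (0.53), Nat8l (0.55) and Ftl1 (0.68), which like Hp were highest on the WT sham array. With 4 points per gene and so many genes searched, such likeness is only a description of these arrays.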

How the data were processed

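The deposited scanner files hold the intensity of each spot, which per the file headers was extracted with Agilent Feature Extraction 10.7.3.1; the submitters' processing notes name version 9.1. The authors' deposited value table, on a log2 scale with a median of 5.91 to 5.93 per array, ranked the probes nearly as the scanner signals did; how it was normalized is not given in the sources used here, and it served as an alternative. Control spots and outlier-flagged spots were left out, spots of a probe averaged, and log2 of the processed signal taken minus each array's 75th percentile. The brightest probe represented a gene; a probe not well above background on 1 of 2 arrays gave a bound. Differences between single arrays have no test. Additive fits used limma 3.58.1 in R 4.3.3 with Benjamini-Hochberg adjustment over all genes. On simulated data, drawn once per term with the same layout and spread, the injury fit called 0 of 50 genes at each size of change. The genotype fit called 41 of 50 at a log2 change of 6 and 17 of 50 at 4, but also 5 of 16408 unchanged genes. With 1 draw per term this gap does not rank the 2 fits. The members, gene lists and markers (summed on the linear scale) were chosen with earlier results of these data known. Other listed genes were named where at least 2-fold apart and among the 3 largest each way; neighbours in pattern are the 3 nearest. The number of arrays limits the precision.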

Additional observations from a re-analysis of the deposited data

How the results depend on the processing

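Of the 19 member differences of at least 2-fold, 17 kept their sign under every other normalization, filter and probe rule tried. The exceptions were the 2 of Hp under normexp background correction (1.24 for injury in NLRC5-/- and 0.28 for genotype in injured kidney). In size alone 9 stayed at 2-fold, but these include Hp for injury in NLRC5-/- kidney, whose sign turned. The filters on dim probes and the rule for bounds could not change a member value. All 12 member probes were well above background on all 4 arrays. The mean over all probes could change only Slc11a2 and Cp. The number of members past 2-fold between genotypes in injured kidney was 3 with normexp and 3 with the mean over all probes of a gene, against 5. With that mean it was 2 for injury in WT (4) and 3 for the difference of responses (5). Among alternatives chosen after seeing the data, the WT sham array in place of the NLRC5-/- sham array gave 5 members for injury in NLRC5-/- (3), and the NLRC5-/- sham array in place of the WT sham array turned Ftl1 (0.79) and Hp (0.89) for injury in WT. In limma, normexp gave 4402 genes with an adjusted p under 0.05 for injury (3612 higher, 790 lower) and 100 for genotype, against 0 and 0. Among the members, Ftl1, Slc11a2, Cp and Hpx passed for injury (adjusted p 0.00928 to 0.0113) and Ftl1 for genotype (0.00554). The members' p values there followed the size of the difference alone. Cp (1.31) and Hpx (1.32) had limma adjusted p values of 0.00992 and 0.00928 for injury. Their differences of the injury responses under normexp were -1.80 and 0.63. Leaving out 1 array, which also dropped the other factor from the fit, gave 0 to 781 genes for injury (781 without NLRC5-/- injured) and 0 to 126 for genotype (126 without WT sham); the part of each change was not tested. The median over all genes moved by 0.11 to 0.20 with normexp in 3 comparisons and by -0.15 with median scaling between the sham arrays. Without the filter on dim probes it moved by 0.26 for injury in WT and 0.13 for injury in NLRC5-/- kidney. The genotype medians moved there by -0.13 in sham and -0.17 in injured kidney. Between the sham arrays, 449 genes were higher and 854 lower by 2-fold with median scaling, against 678 and 566. The counts were 508 and 651 with quantile normalization, 516 and 677 in the authors' value table and 219 and 311 with normexp. No paired analysis was possible because each group has 1 array and the labels give no shared replicate numbers. Slide as a block could not be run, since slide and genotype coincide. Signal over background limits Hp and Hpx.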
